A study of Mus musculus with 8 samples.

Results

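SR proteins and heterogeneous nuclear ribonucleoproteins (hnRNPs) are the RNA-binding proteins that decide, exon by exon, how most pre-mRNAs are spliced. The genes described here are those of the deposited tables whose symbol starts with Srsf or Hnrnp, together with Tra2a, Tra2b, Srrm1, Srrm2 and Son, and leaving out pseudogene symbols that contain "-ps". This rule gave 36 of the 55401 genes in the tables, which were 11 SR genes, 5 SR-related genes and 20 hnRNP genes. They were measured by RNA-seq in AML12 cells, a line derived from hepatocytes of a mouse with a transforming growth factor alpha transgene. Of the 8 dishes, 4 were exposed for 1 h to Opti-ELF-WMF, an extremely low frequency weak magnetic field with a peak of 100 mG given as pulses of 4 ms at 1 to 8 Hz, and 4 were unexposed controls. All dishes came from a single batch of cells. Controls were kept apart from the exposed dishes, in a second incubator without the field, so field and incubator cannot be told apart, and p-values measure the spread between dishes of that batch.

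SR proteins carry a domain rich in arginine and serine next to their RNA recognition motifs. They bind exonic enhancers and help the U1 and U2 particles to recognise the splice sites. The hnRNPs coat nascent transcripts, often bind silencers, and counter SR proteins on many exons. Several of them also act on mRNA export, stability and translation. Both families have been studied in liver as regulators of metabolic transcripts and of hepatocyte maturation. Many of these genes also control their own mRNA through alternative exons that lead to nonsense-mediated decay.

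The values are TPM, a level corrected for transcript length and scaled to the same total in every dish, so levels of different genes can be compared within a dish. The number of reads behind a value is unknown, because TPM keeps no depth. Between 19386 and 20114 genes were above 0 in a dish. The cells expressed Krt8 (2248 TPM, control mean), Krt18 (1905 TPM), Trf (823 TPM), Ttr (358 TPM) and Hnf4a (187 TPM). Other hepatocyte markers were lower, with Alb at 55.1, Serpina1a at 5.66 and Apoa1 at 4.54 TPM. The mature hepatocyte markers Cps1 and Cyp2e1 were at or near 0. Of the cholangiocyte markers, Krt19 stood at 1153, Krt7 at 70.4, Sox9 at 30.8 and Epcam at 0.0725 TPM. Of the macrophage, endothelial and stellate or fibroblast markers, Adgre1, Clec4f, Cdh5 and Lrat were at 0 in every dish, and the highest was Cd68 with 1.05 to 2.21 TPM. Mitochondrial transcripts held 8.94% ± 0.336 of TPM in the control dishes and 7.04% ± 0.764 in the exposed dishes (SD, n = 4 each). Since TPM has a fixed total, every difference was also computed on TPM rescaled without the 37 mitochondrial genes. Because each dish was measured in bulk, fewer cells with a transcript and less of it per cell cannot be told apart.

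The splicing regulators were among the abundant mRNAs of AML12 cells. In control dishes 27 of the 36 genes had a mean of at least 100 TPM, a level reached by 1600 of all genes in the tables. The median control level of the 35 tested members was 178 TPM, compared with 21.9 TPM over the 12122 genes tested. The hnRNP genes reached the highest levels and covered the widest range, from Hnrnpa2b1 with 1487 ± 17.8 TPM (SD, n = 4) to Hnrnph3 with 16.1 ± 1.56 TPM. SR genes ran from Srsf2 (335 ± 11.1 TPM) to Srsf4 (41.5 ± 1.92 TPM). The SR-related genes ran from Srrm2 (178 ± 8.83 TPM) to Srrm1 (94.7 ± 3.55 TPM). Srsf12 was the only member that did not pass the filter of at least 1 TPM in at least 4 dishes. It was listed at 0 in 7 dishes and at 0.01 TPM in exposed dish 2.

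**Figure D1:**
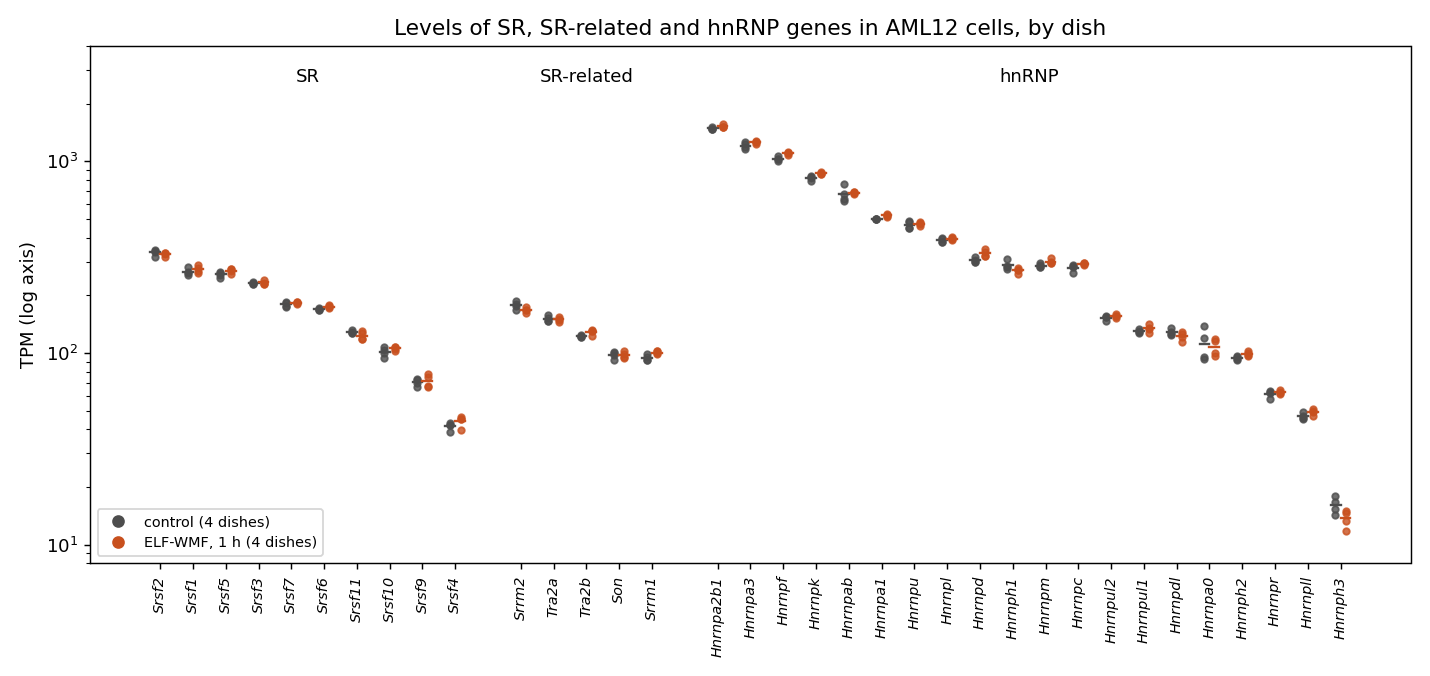
TPM (log axis) of the 35 tested members in each dish, grouped as SR, SR-related and hnRNP genes and ordered by control mean. Grey points are the 4 control dishes, orange points the 4 dishes exposed to ELF-WMF for 1 h, and short lines the means. Levels run from about 1487 TPM for Hnrnpa2b1 to 16.1 TPM for Hnrnph3, and for most genes the points of both conditions lie within a few percent of each other.

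The 3 most abundant members each exceeded 1000 TPM. Hnrnpa2b1, which binds splicing silencers and also sorts microRNAs and mRNAs, stood at 1477, 1513, 1479 and 1478 TPM in control dishes 1 to 4 and at 1562, 1502, 1513 and 1506 TPM in exposed dishes 1 to 4. Control dish 2 lay within the exposed values, so the conditions overlapped, and the log2 fold change was 0.033 ± 0.022 (SE; adjusted p = 0.517). Hnrnpa3, a close relative, stood at 1265, 1182, 1156 and 1225 TPM in control dishes and at 1275, 1255, 1230.25 and 1265 TPM in exposed dishes. Control dish 1 was as high as exposed dish 4, and the conditions overlapped (0.058 ± 0.030; adjusted p = 0.389; 0.038 without control dish 3). The third, Hnrnpf, is described with the genes that were higher after exposure. Replicate dishes of these genes were close to each other. Over all members the median coefficient of variation within a condition was 2.91%, compared with 5.53% over all genes tested. The median SE of the log2 fold change was 0.032 and 0.055. The genes tested had a lower median level (21.9 TPM, members 178 TPM) and were not matched to the members for it. The shares over all genes given below were not matched for level either. Hnrnpa1 varied least (0.965%) and Hnrnpa0 most (14.9%), with 138.5, 119, 94.9 and 93.4 TPM in the control dishes and 99.7, 119, 95.9 and 115 TPM in the exposed dishes.

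After 1 h of exposure the levels of these regulators were close to those of the controls. No member passed an adjusted p of 0.05 (0 of 35, limma with Benjamini-Hochberg adjustment over all genes tested), and over all genes 0% did (0 of 12122), although 1894 genes had an unadjusted p under 0.05. The adjusted p of the members ran from 0.136 to 0.994. For 33 of the 35 members the 95% confidence interval of the log2 fold change lay within 0.21 of 0 on either side. Hnrnpa0 and Hnrnph3 were the exceptions. The bound of 0.21 was not planned and lies just above the widest limits inside it (0.203 for Srsf4 and 0.200 for Hnrnpd). On TPM rescaled without mitochondrial genes the interval of Hnrnph1 also passed it, at -0.211. The fold changes of the members ran from -0.21 (Hnrnph3) to 0.12 (Hnrnpd), with a median of 0.038, beside a median of 0.026 over all genes tested. Of the 35 members, 26 had a fold change above 0 and 9 below 0, where 7720 of the 12122 genes tested were above 0. On TPM rescaled without mitochondrial genes, 19 members were above and 16 below 0, with 5947 of 12107 genes above 0.

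At an unadjusted p under 0.05, 8 members were higher after exposure (Hnrnpf, Hnrnpd, Hnrnpk, Hnrnpa1, Srrm1, Hnrnph2, Tra2b and Hnrnpm), where 12.0% of all genes tested were higher by the same criterion. In the other direction 1 member (Hnrnph3) was lower, where 3.65% of all genes were. For 6 members every exposed dish was above every control dish (Hnrnpf, Hnrnpd, Hnrnpk, Hnrnpa1, Hnrnph2 and Srsf6), which was the case for 8.01% of all genes tested. No member lay wholly lower after exposure, compared with 1.86% of all genes. With the TPM rescaled without mitochondrial genes, the balance changed. There, 2 members had an unadjusted p under 0.05 and were higher (Hnrnpf and Hnrnpd; 5.72% of all genes), and 5 were lower (Hnrnph3, Hnrnph1, Srrm2, Srsf11 and Hnrnpdl; 5.58% of all genes), with a median of 0.008 for the members and -0.002 for all genes. Median-of-ratios scaling gave 3 higher (Hnrnpf, Hnrnpk and Hnrnpd; 6.79% of all genes) and 4 lower (Srrm2, Hnrnph3, Hnrnph1 and Srsf11; 5.52%), with Hnrnpf and Hnrnpk wholly higher (4.58%) and Hnrnph1 wholly lower (3.37%). The count of higher members with an unadjusted p under 0.05 on deposited TPM dropped to 5 without control dish 2 or without exposed dish 2. Over all genes tested, 1539 and 1496 then passed in either direction, and 75.6% and 71.3% of these were higher. The count of lower members was 0 without control dish 3 or exposed dish 3 (1564 and 1712 of all genes in either direction, 78.9% and 77.9% higher). It was 2 without control dish 1 or exposed dish 4 (1815 and 1916, 71.7% and 75.1% higher).

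**Figure D2:**
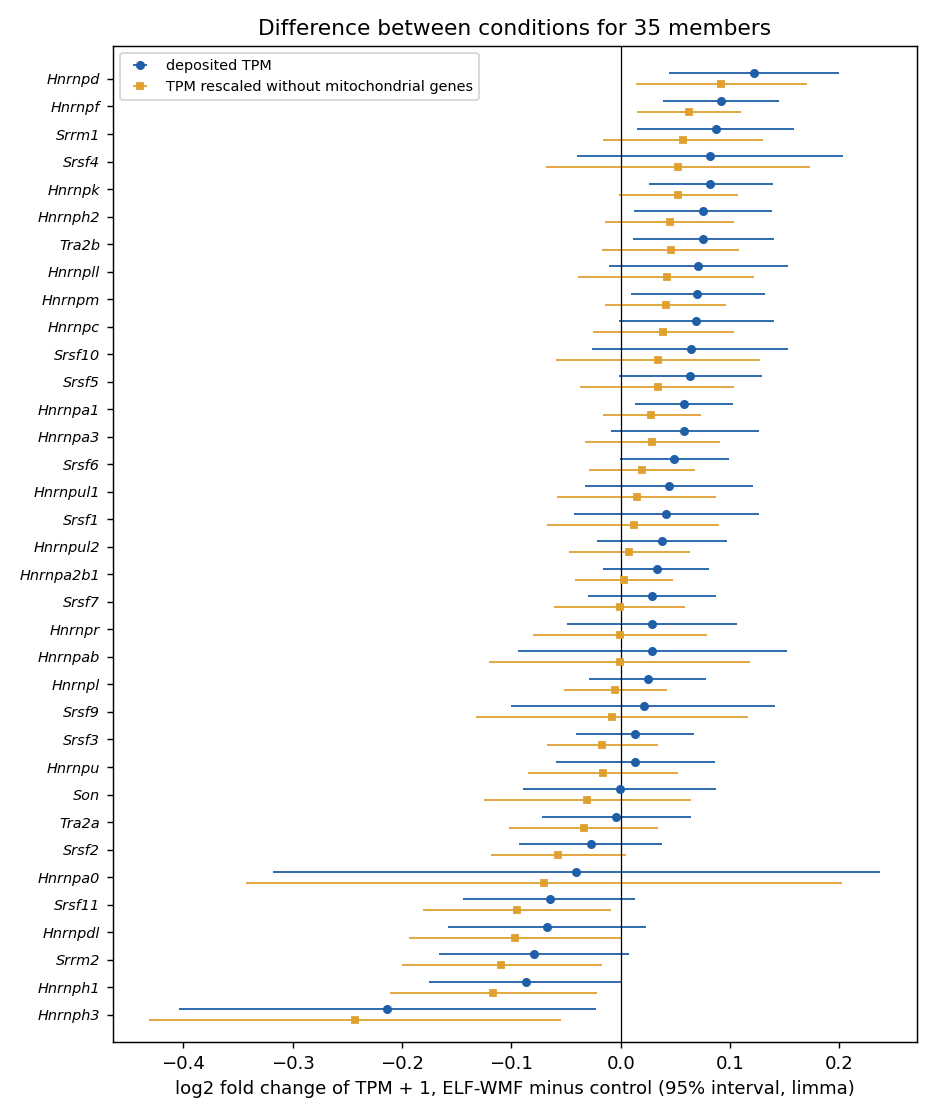
Difference between conditions for the 35 tested members, as the log2 fold change of TPM + 1 (exposed minus control) with its 95% confidence interval from limma. Blue circles use the deposited TPM and yellow squares the TPM rescaled without mitochondrial genes. The squares sit to the left of the circles throughout, and the fold changes on deposited TPM run from -0.21 for Hnrnph3 to 0.12 for Hnrnpd.

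Among the genes that were higher after exposure, Hnrnpf had the smallest p. It encodes hnRNP F, which binds runs of guanines near splice sites. In control dishes it stood at 1031, 1026, 1005 and 1065 TPM, and in exposed dishes at 1081, 1115, 1101 and 1101 TPM. The lowest exposed dish was above the highest control dish, and the log2 fold change was 0.092 ± 0.024 (adjusted p = 0.136; 0.062 after rescaling without mitochondrial genes). Hnrnpd encodes AUF1, a protein of AU-rich elements that controls mRNA decay as well as splicing. Its control dishes had 307, 318, 298 and 298 TPM and its exposed dishes 350.2, 321, 337 and 321 TPM. The groups did not overlap, with a gap of a few TPM between control dish 2 and exposed dishes 2 and 4 (0.12 ± 0.035; adjusted p = 0.157; 0.092 after rescaling). Hnrnpk binds runs of cytosines through KH domains and acts in transcription, splicing and translation. It was measured at 825, 788, 843 and 822 TPM in control dishes and at 857, 883, 856 and 874 TPM in exposed dishes, again without overlap (0.082 ± 0.025; adjusted p = 0.173; 0.052 after rescaling).

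Hnrnpa1, the classical repressor of exon inclusion, had the most even control dishes of all members, with 503, 501, 501 and 499.5 TPM. The exposed dishes held 522, 521, 533 and 512 TPM, all above the controls (0.058 ± 0.020; adjusted p = 0.214). After rescaling without mitochondrial genes it was the only member whose exposed dishes all remained above the controls, a separation found for 3.83% of all genes. The gap was then between 553.0 TPM in control dish 3 and 553.1 TPM in exposed dish 4, and the log2 fold change was 0.028. Hnrnph2, a relative of Hnrnpf, had 96.4, 93.4, 91.7 and 95.6 TPM in control dishes and 96.9, 102, 98.2 and 100.1 TPM in exposed dishes. Its groups touched without overlapping (0.075 ± 0.028; adjusted p = 0.241). Srrm1 encodes a coactivator that bridges SR proteins and the spliceosome. With 92.0, 95.8, 99.3 and 91.8 TPM in control dishes and 98.3, 103, 102 and 99.5 TPM in exposed dishes, its exposed dish 1 lay below control dish 3 (0.087 ± 0.032; adjusted p = 0.231). Tra2b, which binds purine-rich enhancers, had 121, 121, 122 and 124 TPM in control dishes and 132, 130.2, 131 and 122 TPM in exposed dishes. Exposed dish 4 sat among the controls and the other 3 exposed dishes were above all of them (0.075 ± 0.029; adjusted p = 0.248).

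On deposited TPM fewer members had lower levels after exposure, and all of these overlapped, whereas the rescaled TPM gave more lower than higher members at an unadjusted p under 0.05. Hnrnph3, a short relative of hnRNP H and the least abundant tested member, had 16.7, 15.3, 17.9 and 14.3 TPM in control dishes and 14.7, 15.01, 11.9 and 13.3 TPM in exposed dishes. Exposed dishes 3 and 4 were below all controls and exposed dishes 1 and 2 were not (log2 fold change -0.21 ± 0.085, 95% interval -0.40 to -0.023; adjusted p = 0.261). Hnrnph1 encodes hnRNP H, which like hnRNP F binds runs of guanines. Its control dishes had 273, 280.2, 309 and 284 TPM and its exposed dishes 273, 259, 271 and 276 TPM. The highest exposed dish, dish 4, was above control dish 1, and the fold change was -0.087 ± 0.039 (adjusted p = 0.324; -0.05 without control dish 3). On the rescaled TPM all exposed dishes of Hnrnph1 were below all controls (-0.12; adjusted p = 0.339), as they were for 3.25% of all genes.

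Srrm2 encodes a very large scaffold of nuclear speckles, the nuclear bodies that store splicing factors. It had 167, 175, 188 and 181 TPM in control dishes and 161, 168, 168 and 174 TPM in exposed dishes, with exposed dish 1 below all controls (-0.079 ± 0.039; adjusted p = 0.370; -0.052 without control dish 3). Srsf11, an SR protein that interacts with the splicing factor U2AF, had 128, 127, 132 and 129 TPM in control dishes and 118, 119, 127 and 129.5 TPM in exposed dishes. Only exposed dishes 1 and 2 were below the controls (-0.065 ± 0.035; adjusted p = 0.411). Hnrnpdl, the closest relative of Hnrnpd, had 126, 129, 135 and 124 TPM in control dishes and 128, 115, 122 and 126 TPM in exposed dishes, and the conditions overlapped (-0.067 ± 0.040; adjusted p = 0.467; -0.036 without exposed dish 2 and -0.043 without control dish 3).

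**Figure D3:**
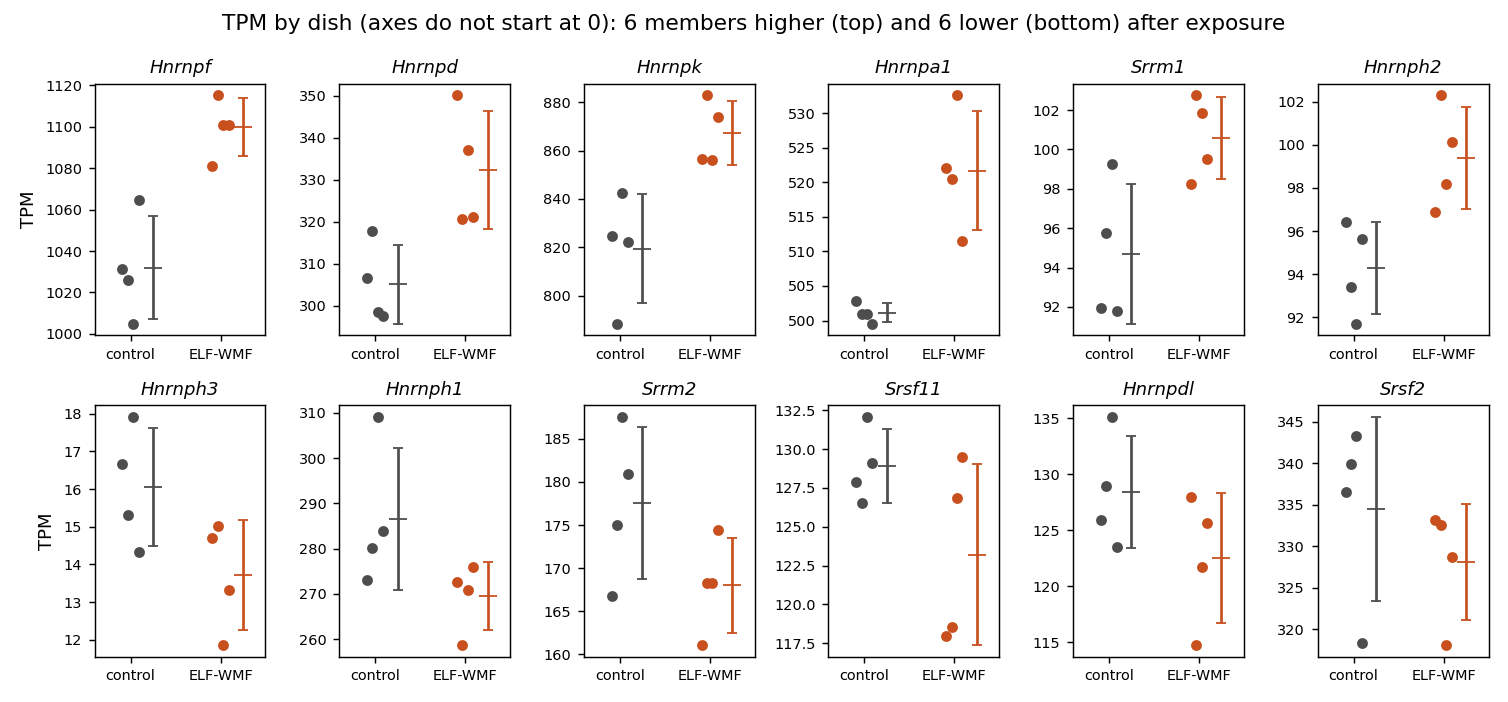
TPM in each dish for the 6 members with the smallest p among those higher (upper panels) and the 6 among those lower after exposure (lower panels). Points are dishes, and the bars beside them are the mean and SD of 4 dishes. The axes do not start at 0. In the upper panels Hnrnpf, Hnrnpd, Hnrnpk, Hnrnpa1 and Hnrnph2 show no overlap between conditions, whereas every lower panel overlaps.

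Among the SR genes the conditions were mostly mixed. None of the 10 tested SR genes had an unadjusted p under 0.05 in either direction, 8 had a fold change above 0, and their median was 0.035. After rescaling without mitochondrial genes 5 were above and 5 below 0, the median was 0.005, and 1 (Srsf11) was lower at an unadjusted p under 0.05. Srsf1, the founding member of the family, had 282, 265, 261 and 256 TPM in control dishes and 262, 288, 267 and 277 TPM in exposed dishes, which overlapped widely (0.041 ± 0.038; adjusted p = 0.657). For Srsf2, a splicing factor of nuclear speckles also known as SC35, the control dishes held 337, 339.9, 343 and 318 TPM and the exposed dishes 333, 333, 318 and 329 TPM, again overlapping (-0.027 ± 0.029; adjusted p = 0.709). Srsf3, the smallest SR protein, had 233, 234, 230.2 and 229 TPM in control dishes and 242, 233, 229 and 229.9 TPM in exposed dishes. Exposed dish 1 alone was above the controls, and the fold change was 0.013 ± 0.024 on deposited TPM and -0.017 on TPM rescaled without mitochondrial genes (adjusted p = 0.845 and 0.845). Srsf6 was the SR gene without overlap, with 168, 169, 171 and 168 TPM in control dishes and 179, 175, 172 and 174 TPM in exposed dishes (0.049 ± 0.022; adjusted p = 0.331). Besides Srsf11, described above, the remaining SR genes had fold changes from 0.021 (Srsf9) to 0.082 (Srsf4). Of the 5 SR-related genes, Son (-0.001 ± 0.039), which organises nuclear speckles with Srrm2, and Tra2a (-0.004 ± 0.030) had fold changes nearest to 0.

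Summed over the family, hnRNP transcripts took 0.867, 0.847, 0.831 and 0.845% of all TPM in control dishes and 0.877, 0.88, 0.87 and 0.876% in exposed dishes. The exposed dishes were all above the controls, at 0.876% ± 0.0041 against 0.847% ± 0.015 (SD, n = 4 each). Without mitochondrial genes the sums were 0.942% ± 0.0046 and 0.931% ± 0.013, and the dishes overlapped. SR transcripts took 0.181% ± 0.00064 of TPM in exposed and 0.178% ± 0.0024 in control dishes, without overlap, and this order turned over without mitochondrial genes, at 0.194% ± 0.0016 and 0.195% ± 0.0029 with overlap. The SR-related genes held 0.0645% ± 0.00091 in exposed and 0.0643% ± 0.0018 in control dishes, an order that also turned over without mitochondrial genes (0.0694% and 0.0706%).

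**Figure D4:**
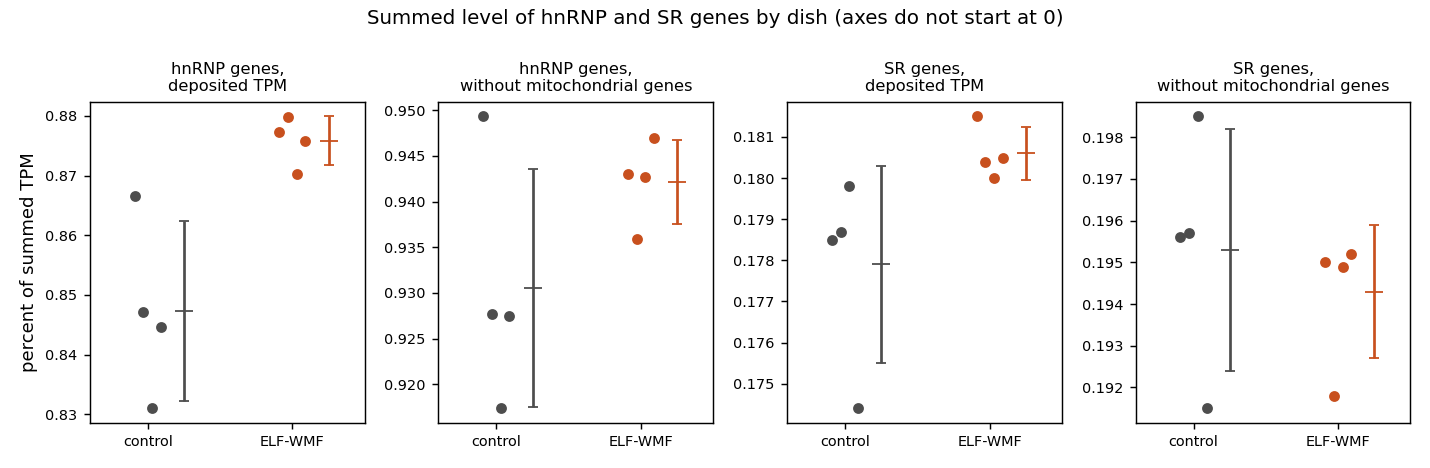
Summed TPM of the 20 hnRNP genes (left pair) and the 11 SR genes (right pair) as a percentage of all TPM in each dish, on deposited TPM and without mitochondrial genes. Points are dishes and bars the mean and SD of 4 dishes, and the axes do not start at 0. The conditions are apart on deposited TPM and overlap without mitochondrial genes, where the SR mean of the exposed dishes is the lower.

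The ratio of the TPM of 2 genes within a dish is the same whatever the scaling, and its differences were taken on log2(TPM + 1). It was computed for 21 pairs, within hnRNP subfamilies and for Tra2a with Tra2b and Srrm1 with Srrm2. The pairs were chosen after the values of the single genes were seen, and no pair of Srsf genes was included. For 5 of these pairs (23.8%) the ratios did not overlap between conditions. This compares with 54 of the 595 pairs of tested members (9.08%) and 6.36% of all pairs of genes tested. Srrm1 and Srrm2, which are among these 5, were paired by name only and are not close relatives. Hnrnpf to Hnrnph1 was 3.78, 3.66, 3.25 and 3.75 in control dishes and 3.97, 4.31, 4.06 and 3.99 in exposed dishes. Every exposed dish was higher, the mean log2 difference was 0.18, and it stayed between 0.13 and 0.20 with any single dish left out. Hnrnph1 to Hnrnph2 differed the other way, from 3.04 ± 0.231 to 2.71 ± 0.127 (mean ± SD, n = 4 each), with a narrow gap between the groups. Hnrnpf to Hnrnph2 was 10.9 ± 0.183 in control and 11.1 ± 0.144 in exposed dishes, with overlap. In the subfamily of hnRNP F and H, the ratios of Hnrnph1 with Hnrnpf and Hnrnph2 separated the dishes and the ratio of Hnrnpf to Hnrnph2 did not. All 3 ratios with Hnrnph3 overlapped.

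Hnrnpd to Hnrnpdl was 2.44, 2.46, 2.21 and 2.41 in control dishes and 2.74, 2.80, 2.77 and 2.56 in exposed dishes. All exposed dishes were higher (mean log2 difference 0.19, and 0.15 to 0.22 with any single dish left out). These genes are neighbours on chromosome 5, 54639 bases apart on the same strand. Tra2b to Tra2a was 0.827, 0.797, 0.831 and 0.787 in control dishes and 0.870, 0.871, 0.847 and 0.838 in exposed dishes, without overlap (0.079; 0.066 to 0.091 with single dishes left out). Srrm1 to Srrm2 was 0.551, 0.547, 0.529 and 0.508 in control dishes and 0.610, 0.611, 0.605 and 0.570 in exposed dishes. The ratio was higher in every exposed dish (0.17; 0.14 to 0.19 with single dishes left out). By contrast, Hnrnpa3 to Hnrnpa1 had the same mean in both conditions, 2.41 ± 0.0934 in control and 2.41 ± 0.0708 in exposed dishes. Counting over all pairs of members, of which 9.08% did not overlap, Hnrnph1 had the most pairs without overlap (12 of its 34). Hnrnpd (9) and Srrm2 (8) followed. All pairs of a gene use the same values of that gene, so they are not separate results. The same count was not made for single genes outside the members.

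**Figure D5:**
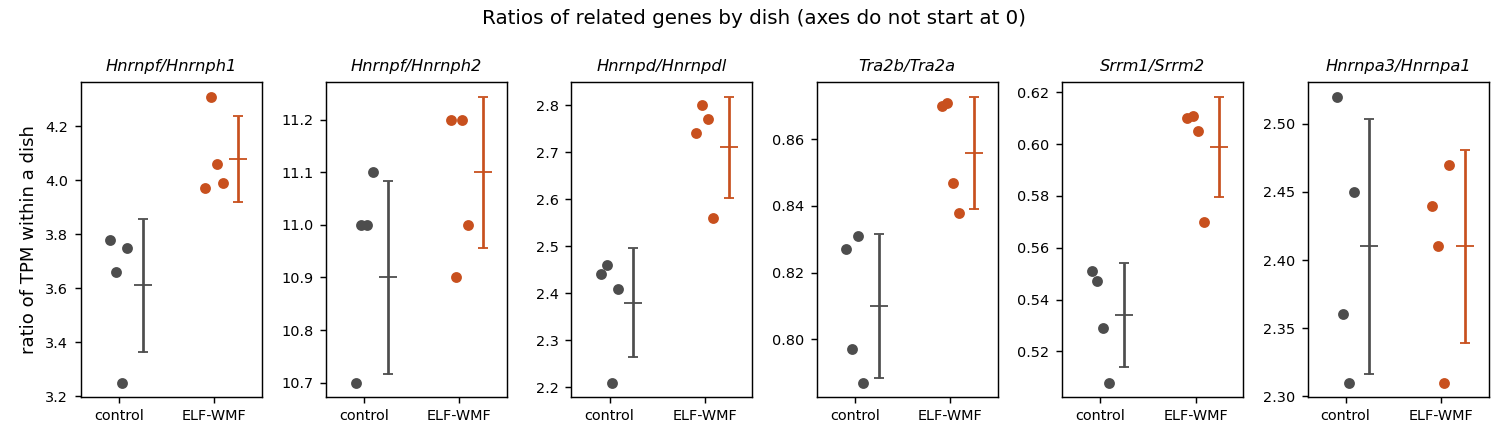
Ratio of TPM of related genes within each dish for 6 pairs. Points are dishes and bars the mean and SD of 4 dishes, and the axes do not start at 0. The exposed dishes lie above all control dishes for Hnrnpf/Hnrnph1, Hnrnpd/Hnrnpdl, Tra2b/Tra2a and Srrm1/Srrm2, and overlap with them for Hnrnpf/Hnrnph2 and Hnrnpa3/Hnrnpa1.

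The upstream sequences of Hnrnpd, the member with the highest fold change, and Hnrnph1, the member most often found in separated ratios, are shown as examples of the promoters of members with a fold change above and below 0, neither of which passed the adjusted test. Both are the 250 bases before the most upstream RefSeq start site (GRCm38.p6), written 5′ to 3′ on the strand of the gene. Hnrnpd lies at chr5:99955935-99978938 (minus strand) and its window at chr5:99978939-99979188. Hnrnph1 lies at chr11:50376990-50386528 (plus strand) and its window at chr11:50376740-50376989. Capitals mark matches, on either strand, to the GC box (GGGCGG), the CCAAT box, the ETS motif (CCGGAAG) and the E-box (CACGTG).
Hnrnpd: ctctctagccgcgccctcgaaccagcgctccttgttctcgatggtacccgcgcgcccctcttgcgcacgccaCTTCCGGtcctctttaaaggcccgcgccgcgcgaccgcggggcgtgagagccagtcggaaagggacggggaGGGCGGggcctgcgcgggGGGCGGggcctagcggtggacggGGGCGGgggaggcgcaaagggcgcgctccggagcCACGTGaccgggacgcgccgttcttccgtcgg
Hnrnph1: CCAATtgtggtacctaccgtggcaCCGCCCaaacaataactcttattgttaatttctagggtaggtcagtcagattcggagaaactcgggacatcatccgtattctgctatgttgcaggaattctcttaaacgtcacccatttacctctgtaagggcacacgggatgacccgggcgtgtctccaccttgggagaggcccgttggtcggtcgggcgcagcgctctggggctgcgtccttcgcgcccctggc

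The Hnrnpd window held 3 GC boxes, 1 ETS motif and 1 E-box and was 74.4% G and C. The Hnrnph1 window held 1 CCAAT box and 1 GC box and was 55.6% G and C. The window of Hnrnpf, the higher member with the smallest p, held 0 GC boxes and 1 ETS motif and was 50.4% G and C. The printed windows therefore do not stand for higher and lower members in general. A window was found for 34 of the 36 members. The GC box was present in 26 of these (76.5%), compared with 33.0% of the windows of 27025 genes. CCAAT was present in 18 members (52.9%; 34.5% of all genes), the ETS motif in 6 (17.6%; 7.07%), and the cyclic AMP response element core TGACGTC in 4 (11.8%; 2.86%). The TATA box (TATAAA) was present in 3 members (8.82%; 13.0%) and the E-box in 2 (5.88%; 6.04%). The members' windows were also richer in G and C, with a median of 64.2% compared with 52% over all genes, and this was not taken into account in the shares. Windows of all genes were used whether or not the gene was expressed in these cells, which was not taken into account either. These matches are a description of the letters in the windows.

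Many members have annotated transcript types that gene-level TPM does not resolve. In GENCODE M21, 24 of the 35 tested members (68.6%) have at least 1 transcript annotated as a target of nonsense-mediated decay, compared with 30.1% of the 10940 tested protein-coding genes. These were 9 of 10 SR genes, 5 of 5 SR-related genes and 10 of 20 hnRNP genes. A transcript with a retained intron is annotated for 27 members (77.1%; 60.9% of tested protein-coding genes), and the median number of transcripts was 9 for members and 5 for all. Hnrnpf, Hnrnph1, Hnrnph2, Hnrnpa0, Hnrnpab and Srsf10 have neither kind. A TPM per gene sums productive and unproductive transcripts, so a shift between them could not be measured here.

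Genes around the splicing regulators were examined in 5 further lists, and no gene of any of them passed an adjusted p of 0.05. Among the kinases and the import receptor of SR proteins, 9 of 10 genes were tested, of which 2 were lower and 1 was higher at an unadjusted p under 0.05 (3.65% and 12.0% of all genes tested). The median fold change of that list was -0.051. After rescaling without mitochondrial genes the median was -0.08, with 0 higher (5.72% of all genes) and 2 lower (5.58%). On deposited TPM 1 gene of the list was wholly lower (1.86% of all genes), and after rescaling 2 were (3.25%). Clk4, a kinase of the CLK family that phosphorylates SR proteins in the nucleus, had 48.4, 49.9, 56.7 and 49.0 TPM in control dishes and 42.6, 39.2, 43.8 and 44.5 TPM in exposed dishes. All exposed dishes were lower (-0.25 ± 0.057; adjusted p = 0.122; -0.28 after rescaling without mitochondrial genes). Clk1, its closest relative, had 73.3, 79.5, 80.6 and 74.6 TPM in control dishes and 72.4, 66.8, 69.6 and 73.8 TPM in exposed dishes. Exposed dish 4 was just above the lowest control (-0.12 ± 0.043; adjusted p = 0.211). Tnpo3, which carries SR proteins into the nucleus, had a fold change of 0.078 ± 0.034 (adjusted p = 0.309), and the SRPK kinases Srpk1 and Srpk2 had -0.031 and -0.076.

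Of 21 hnRNP proteins and relatives under other symbols, 20 were tested. At an unadjusted p under 0.05, 7 were higher (12.0% of all genes tested) and 0 lower (3.65%), and the median fold change was 0.058. After rescaling the median was 0.029, with 4 higher (5.72% of all genes) and 0 lower (5.58%). Pcbp2, a protein of cytosine runs also called hnRNP E2, had 657, 657, 659 and 649 TPM in control dishes and 686, 719, 701 and 680.0 TPM in exposed dishes, without overlap (0.087 ± 0.023; adjusted p = 0.140). Syncrip, or hnRNP Q, likewise did not overlap on deposited TPM (0.090 ± 0.025, adjusted p = 0.149). In this list 5 genes were wholly higher on deposited TPM (8.01% of all genes tested) and 1 after rescaling (3.83%). Among 30 other regulators of alternative splicing, 23 were tested, with 3 higher, near the 12.0% of all genes, and 1 lower (3.65%). Their median was 0.018. After rescaling it was -0.012, with 1 higher (5.72% of all genes) and 3 lower (5.58%). Ptbp1, the polypyrimidine tract repressor, had 395, 392, 409.8 and 408 TPM in control dishes and 421, 456, 420.2 and 436 TPM in exposed dishes. Every exposed dish was above every control (0.11 ± 0.031; adjusted p = 0.153). Khdrbs1, which encodes Sam68, had a fold change of 0.10 ± 0.035 (adjusted p = 0.202), and Tia1, which binds uridine-rich introns, -0.19 ± 0.075 (adjusted p = 0.251).

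Of 20 other genes with an arginine and serine rich domain, 19 were tested, with 3 higher (12.0% of all genes) and 0 lower (3.65%). Their median was 0.023. After rescaling the median was -0.006, with 0 higher (5.72% of all genes) and 2 lower (5.58%). Rnps1, a protein deposited with exon junctions, had 0.076 ± 0.025 (adjusted p = 0.188), and Scaf11 0.088 ± 0.029 (adjusted p = 0.191). All 14 genes of nonsense-mediated decay were tested, with 2 higher, near the 12.0% of all genes, and 0 lower (3.65%). Their median was 0.021. After rescaling it was -0.008, with 1 higher (5.72% of all genes) and 0 lower (5.58%). Eif4a3, the helicase that anchors the exon junction complex, had 150.0, 143, 141 and 145 TPM in control dishes and 155, 158, 159 and 154 TPM in exposed dishes. Its groups did not overlap (0.11 ± 0.027; adjusted p = 0.123). Smg9, a cofactor of the decay kinase, had 0.081 ± 0.032 (adjusted p = 0.263).

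Reads of 11 members could be shared with near-identical copies elsewhere in the genome. The copies held 6.49% of the member's TPM for Hnrnpk and at most 2.01% for the others. Adding their TPM moved the fold change of Hnrnpk from 0.082 to 0.078 and that of Hnrnpf from 0.092 to 0.096, and changed the sign of none of the 11. Hnrnpm (0.070 ± 0.027; adjusted p = 0.251) overlaps Marchf2 on the same strand over 1169 bases, so its level is less certain. Hnrnpul2 overlaps Gm50139 (4.09 TPM) on the same strand over 360 bases. Hnrnpu overlaps Cox20 on the opposite strand over 804 bases. A stretch of 593 of them is identical to a transcript of Cox20, whose TPM was 18.3% of that of Hnrnpu. Cox20 was not counted among the copies because it lies at the same place. Hnrnph3 overlaps Rufy2 on the opposite strand over 115 bases, and further members also overlap genes on the opposite strand.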

How the data were processed

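RNA from 4 control and 4 exposed dishes of AML12 cells was sequenced from stranded mRNA libraries, and the authors deposited 1 table of TPM per dish for 55401 genes. The submitters' processing notes name Trimmomatic 0.39, STAR 2.7.4a, RSEM 1.3.3 and the build mm10, with no roles. TPM sums to 1000000 in every dish, so depth and counting error are unknown. Genes with at least 1 TPM in at least 4 dishes (12122) were compared on log2(TPM + 1) with limma 3.58.1 in R 4.3.3 (eBayes with a trend, two-sided, Benjamini-Hochberg adjustment over all genes tested), and fold changes are on that scale, which understates those of low genes. The fit was tested on simulated data, in which the changed genes differed by more than any member did here. That test does not cover differences as small as those of the members. Separation of dishes, ratios and sums were computed without a test.

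The members and lists were chosen with earlier results of these data known. Values in every dish were given for the 6 higher and 6 lower members with the smallest p, the 3 most abundant, and Srsf1, Srsf2, Srsf3, Tra2b and Hnrnpa1. From other lists, up to 2 genes per direction with an unadjusted p under 0.05 were named. Other genes were singled out after their values were seen. Qki was not found under that symbol. Alternatives covered the pseudocount (0.1), filters, scaling, a replicate block and leaving out each dish. Adding copies, leaving dishes out of ratios and rescaling sums were chosen after seeing the data. Positions and transcript types came from GENCODE M21 (GRCm38), copies from BLAST 2.17.0 (at least 95% identity over at least 80% of the length), and promoters from RefSeq (GRCm38.p6). Protein sequences were not used here.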

Additional observations from a re-analysis of the deposited data

Results flagged for a closer look

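Of 129 groups of 4 dishes checked, 5 held 1 dish far from the other 3, and chance gives about 1 in 20. Hnrnpa2b1 was 1513 TPM in control dish 2 and 1477 to 1479 TPM in the other control dishes. Tra2b was 122 TPM in exposed dish 4 and 130.2 to 132 TPM in the other exposed dishes. The ratio of Srrm1 to Srrm2 was 0.57 in the same exposed dish 4 and 0.605 to 0.611 in the others. The summed share of SR genes without mitochondrial genes was 0.192% in exposed dish 2 and 0.195% in each of the others. Srsf12 was 0.01 TPM in exposed dish 2 and listed at 0 in the others.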

How the results depend on the processing

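The count of genes with an adjusted p under 0.05 was 0 with the deposited TPM, 1 when at least 1 TPM was required in every dish, 1 with median-of-ratios scaling, and 0 to 2 with single dishes left out. No member was among them. Median-of-ratios scaling left 3 members higher at an unadjusted p under 0.05 and 4 lower, with 2 members wholly higher and 1 wholly lower. TPM rescaled without mitochondrial genes gave 2 higher and 5 lower, with 1 wholly higher and 1 wholly lower, and a median of -0.002 over all genes. The share of higher genes among those with an unadjusted p under 0.05 was 76.6% on deposited TPM, 55.2% with median-of-ratios scaling and 50.7% after rescaling. Requiring at least 1 TPM in every dish gave 2 lower members, where 1835 genes passed in either direction and 77.2% of these were higher. With single dishes left out, members higher numbered 5 to 10 and lower 0 to 2. Over all 12122 genes tested, 1496 to 1963 then had an unadjusted p under 0.05 in either direction. Of these, 71.3 to 82.8% were higher. Wholly higher members numbered 7 to 10 (10 without exposed dish 1) and wholly lower 0 to 2 (2 without control dish 1 or control dish 4). The share of all genes wholly higher or lower was not counted with dishes left out, so these counts have no background. A separation is easier to reach with fewer dishes. The median of the members then ran from 0.032 to 0.046. Srsf3 changed sign to -0.01 with median-of-ratios scaling, -0.017 after rescaling and -0.004 without exposed dish 1 (up to 0.021 without other dishes). The cause was not tested.

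Dishes with the same number in both conditions did not deviate together (correlations from -0.042 to 0.026, and 0 of 8 dishes correlated best with its own number). The numbers were used as names of dishes only, and whether they stand for a pairing is not known. With the number as a replicate block, 9 members were higher at an unadjusted p under 0.05 (11.8% of all genes) and 2 lower (Srrm2 and Hnrnph1; 3.79%), and 0 genes had an adjusted p under 0.05. For single genes and counts in lists, 263 values were classed as unchanged. For genes this means the direction and the side of an adjusted p of 0.05, or direction alone for the 11 with copies added. For counts it means within 1.5 times. Beyond that, 4 counts in lists were higher and 9 lower, and 3 values, those of Srsf3, reversed. This does not cover the unadjusted p, which Hnrnpk, Hnrnpa1, Srrm1, Hnrnph2, Tra2b and Hnrnpm no longer passed after rescaling (fold changes 0.028 to 0.057), or the size of small fold changes: with single dishes left out, Srsf1 ran from 0.017 to 0.069, Srsf2 from -0.051 to -0.012 and Hnrnpa2b1 from 0.02 to 0.041. The unknown depth and the 4 dishes per condition limit the precision.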
